A study of Mus musculus with 20 samples.

Results

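The genes described here code for secreted peptides and factors of neurons: Adcyap1, Bdnf, Vgf, Scg2, Cck, Penk, Tac1, Nptx1, Nptx2 and Inhba. They were chosen by symbol, and all 10 were among the 14700 genes measured over the 4 deposited tables. They were measured by RNA sequencing in mouse primary cortical neurons isolated at embryonic day 15 and grown for 7 days. N_WT and N_KO cultures were held for 12 h in normoxia, in medium given 25 mM glucose and 0.2 mM pyruvate. OGD_WT and OGD_KO cultures spent the same 12 h under oxygen and glucose deprivation (OGD), at 1% O2 and 5% CO2 in medium to which neither was added. WT cultures were wild type, and KO cultures lacked ciRS-7, a circular RNA made from the Cdr1as locus that is known for its many binding sites for the microRNA miR-7. The strain label, C57BL/6N-Cdr1asem1Nikr, was the same for all libraries, WT included, and the genotype came from its own label. Each group had 5 libraries, called biological replicates in the series' design text, and a normoxic and a deprived library of equal number carried the same genotype label and batch (1, 2, 3.1, 3.2 or 3.3). Equal numbers are called a culture below.

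Neuropeptides are made as precursors, cut and trimmed by convertases and stored in dense-core vesicles, from which they are released during strong or repeated firing. Bdnf, Vgf, Scg2, Nptx2 and Inhba are known as genes that synaptic activity and calcium switch on in cortical neurons, in part through the factor CREB, which binds the cAMP response element (CRE). Adcyap1 codes for PACAP, a peptide known for its protective action on neurons short of oxygen. Penk codes for enkephalins, Tac1 for substance P and neurokinin A, and Cck for cholecystokinin. Nptx1 and Nptx2 code for neuronal pentraxins, which gather AMPA-type glutamate receptors at synapses, and Inhba codes for the subunit of activin A.

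Because the knockout removes an RNA that binds miR-7, the seed of miR-7 (bases 2 to 8, in capitals) is shown with the matching site found among the members. The miRNA sequences are those of RefSeq, GRCm38.p6, and the site was read from a 3′ UTR of GENCODE mouse release 21, with the match to the seed in capitals.
mmu-miR-7a-5p: uGGAAGACuagugauuuuguugu
mmu-miR-7b-5p: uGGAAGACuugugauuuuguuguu
Inhba, chr13:16027434-16027440, plus strand, within 30 bases: gtaccttcattTCTTCCAaaaccaaactga
Inhba was the member with a seed match, 1 of the 10 with an annotated 3′ UTR. Its site pairs with bases 2 to 7 of the miRNA and is followed by an A (a 7mer-A1 site), and it was present in 1 of the 2 Inhba transcripts with a 3′ UTR. The other 9 members had no match of 7 or 8 bases.

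Promoter sequence is shown for Adcyap1, which fell the most under OGD, and for Scg2 and Cck, which did not pass the test, since CREB and the hypoxia-inducible factors are known regulators of activity and hypoxia genes. RefSeq promoter windows (250 bases before to 50 after a start, GRCm38.p6) were held for 6 members, in 13 windows. Both strands were searched for TGACGTCA (the full CRE) and ACGTG (a form of the core of the hypoxia response element). They were also searched for CACGTG (an E-box, which contains ACGTG on both strands) and TGANTCA (an AP-1 site). Variants of these letters were not searched, among them GCGTG, another form of the hypoxia core. Capitals mark the match.
Scg2, chr1:79440076-79440105, minus strand, CRE: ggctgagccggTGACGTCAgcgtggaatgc
Adcyap1, chr17:93198943-93198972, plus strand, ACGTG: accggatcattACGTGactgggggagaaaa
Cck, chr9:121495742-121495771, minus strand, CACGTG: ctgcctctgagCACGTGtcctgctggactg
The full CRE was found in 1 of the 13 windows, that of Scg2, 68 bases before its start. It was found in 1.79% of all 32851 promoters of the same length. ACGTG was found in 6 of the 13 windows (of Adcyap1, Bdnf, Cck and Tac1), and in 19.6% of all promoters. CACGTG was found in 2 windows, of Cck and Tac1, and in 7.15% of all promoters, and TGANTCA in 1 window, of Bdnf, and in 7.81%. Windows of the same gene can overlap, as those of Adcyap1 do. The ACGTG match 37 bases before a Bdnf start lies in tCACGTca, which differs from the full CRE in its second letter. Both Adcyap1 windows hold tgacgtct, which differs from it in the last letter. Near matches to the CRE were not searched for, so other windows may hold them too. GCGTG follows the CRE in the Scg2 sequence above and was not counted. These matches describe letters and not binding. Penk, Vgf, Nptx1 and Nptx2 are named only.

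Libraries held 7071506 to 16658618 recovered reads. Levels are given as CPM (counts scaled to a common library size) on a scale shared by all 20 libraries, and fold changes as log2 differences fitted inside each deposited table with limma. Cdr1as was at 49.8 to 121 CPM in the WT libraries and at 0.144 to 1.48 CPM in the KO libraries. The first principal component separated OGD from normoxia, and culture 5 of each genotype stood apart under OGD on the second component, so results that rest on them are given with and without them. Markers of neurons were present in all libraries, and none of the 8 microglia markers was among the genes analysed.

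In WT cultures 5 of the 10 members passed an adjusted p of 0.05 under OGD, where 44.3% of all genes tested did. Nptx2 rose, 1 of 10 where 21.6% of all genes rose, and Adcyap1, Inhba, Penk and Tac1 fell, 4 of 10 where 22.8% did. In KO cultures the same 5 members and Vgf passed, 6 of 10, where 40.9% of all genes did (21% rose and 19.9% fell). In the fit of all 20 libraries with the batches as terms, these calls of members also passed, except that of Vgf. On the log2 scale the members had median changes of -0.38 (WT) and -0.44 (KO), and all genes of -0.03 and 0.00. The groups did not overlap for 3 members in WT, as for 26.9% of all genes, and for 5 members in KO, as for 25.8%.

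**Figure D1:**
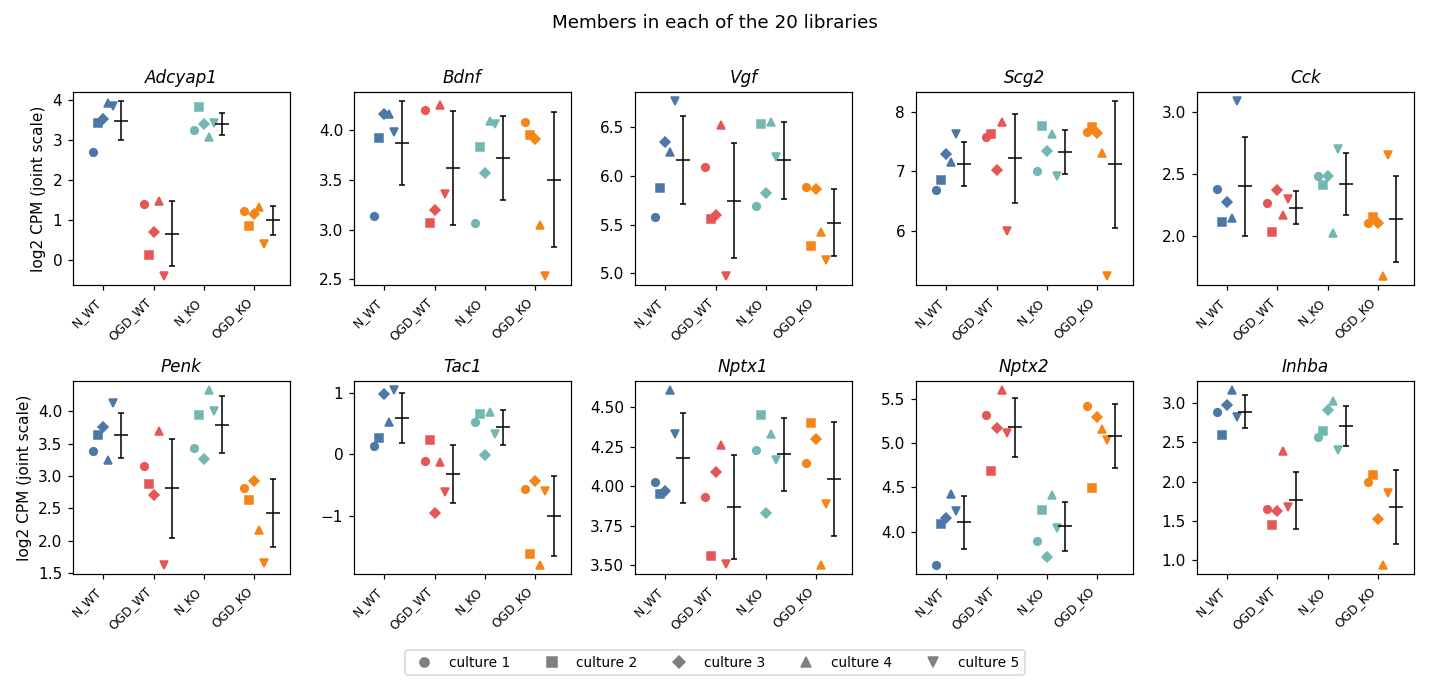
Level of each member in the 20 libraries (y axis, log2 CPM on the joint scale, a scale of its own in each panel), by group; the marker shape gives the culture number and the black bar the mean and SD of 5 libraries. Adcyap1, Nptx2 and Inhba show no overlap between N and OGD in either genotype, and the markers of culture 5 are the lowest of the OGD groups for Scg2, Penk, Vgf and Adcyap1.

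Adcyap1 (chr17:93199017-93206537, plus strand, mm10 as for the genes below) fell the most of the members in both genotypes. In N_WT it was at 6.31, 10.6, 11.3, 15.1 and 14.4 CPM in cultures 1 to 5, and in OGD_WT at 2.46, 0.913, 1.46, 2.59 and 0.581 CPM. The lowest normoxic library lay above the highest deprived one, and the deprived libraries held between 6 and 39 reads of the gene. The log2 change was -2.66 (SE 0.27, 95% interval -3.22 to -2.10, adjusted p = 1.46e-07), a level 6.33-fold lower. KO cultures gave 9.31, 13.9, 10.5, 8.2 and 10.7 CPM in N_KO and 2.16, 1.62, 2.06, 2.32 and 1.15 CPM in OGD_KO. These groups did not overlap either, and the log2 change was -2.26 (SE 0.18, interval -2.64 to -1.87, adjusted p = 6.1e-08), a level 4.77-fold lower. Without overlap each of the 5 cultures of each genotype has to show the lower level. The differences within cultures ran from -3.91 to -1.25 in WT and from -2.81 to -1.64 in KO. Without culture 5 the changes were -2.44 in WT (its OGD library left out) and -2.13 in KO. Counts of this size carry a pseudocount in the deposited scale that makes such folds smaller than the ratio of the CPM. In whole cultures, fewer cells of a type and less RNA per cell cannot be told apart, here and for every fall below.

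The receptors of PACAP did not pass the test. Adcyap1r1, the PAC1 receptor, changed by -0.07 (SE 0.14) in WT and by 0.00 (SE 0.22) in KO on the log2 scale. Vipr1, a receptor shared with the peptide VIP, gave 0.28 (SE 0.19) and 0.62 (SE 0.29). Vipr2 was tested in KO cultures, at 0.04 (SE 0.20).

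Nptx2 (chr5:144545902-144557478, plus strand) was the member that rose. Its N_WT levels were 12.2, 16.9, 17.6, 21.3 and 18.7 CPM in cultures 1 to 5 and its OGD_WT levels 39.7, 25.6, 35.8, 48.4 and 34.5 CPM. All deprived libraries lay above all normoxic ones, and the log2 change was 1.05 (SE 0.17, interval 0.69 to 1.41, adjusted p = 5.97e-05), a 2.06-fold rise. In KO the levels were 14.6, 18.8, 12.9, 21.1 and 16.3 CPM in normoxia and 42.6, 22.3, 39.1, 35.6 and 32.5 CPM under OGD. The groups again did not overlap, and the change was 1.02 (SE 0.18, interval 0.65 to 1.39, adjusted p = 0.000185), a 2.02-fold rise. All 5 cultures of each genotype were then higher under OGD, as follows where groups do not overlap. They differed by 0.56 to 1.65 in WT and by 0.26 to 1.58 in KO, with the smallest difference in culture 2 of both. In the 3 KO cultures of batch 3 alone the change was 0.66 and no longer passed (adjusted p = 0.124), while in the 4 WT cultures of batch 3 it was 0.89 (adjusted p = 0.00115).

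Nptx1, the paralog of Nptx2, did not share that rise. It lay between 15.2 and 24.3 CPM in N_WT and between 11.2 and 19 CPM in OGD_WT, and between 14.1 and 21.7 CPM in N_KO and 11.1 and 20.9 CPM in OGD_KO. The ranges overlapped in both genotypes, and the changes were -0.32 (SE 0.17, adjusted p = 0.136) and -0.14 (SE 0.18, adjusted p = 0.539). Nptxr, the membrane-bound pentraxin that assembles with both, fell by 0.97 in WT (SE 0.18, adjusted p = 0.000169) and by 1.17 in KO (SE 0.22, adjusted p = 0.000412).

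Inhba (chr13:16011851-16031621, plus strand) fell in both genotypes. In WT the levels were 7.24, 5.83, 7.69, 8.83 and 6.93 CPM in normoxia and 2.96, 2.56, 2.92, 5.06 and 3 CPM under OGD. The groups did not overlap, and culture 4 was the highest in both. The log2 change was -1.10 (SE 0.18, interval -1.47 to -0.73, adjusted p = 4.7e-05), a level 2.14-fold lower. In KO the levels were 5.76, 6.13, 7.4, 8 and 5.12 CPM in normoxia and 3.82, 4.1, 2.71, 1.74 and 3.46 CPM under OGD, again without overlap. That change was -0.97 (SE 0.20, interval -1.38 to -0.55, adjusted p = 0.000819). The differences within WT cultures were close together, from -1.31 to -0.77, and those within KO cultures ran from -1.95 to -0.51. Inhba carries the miR-7 seed match shown above.

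Parts of the activin pathway fell with Inhba. Of the 4 activin receptors, Acvr1c (ALK7) fell by 2.14 in WT (SE 0.23, adjusted p = 3.4e-07) and by 1.41 in KO (SE 0.21, adjusted p = 3.8e-05). Acvr1b (ALK4) fell by 0.86 and 0.91 (adjusted p = 0.000226 and 0.000156). Acvr2a passed in WT, at -0.58 (SE 0.18, adjusted p = 0.0111), but not in the fit of all libraries with batch terms (adjusted p = 0.128), nor in KO, at -0.62 (SE 0.30, adjusted p = 0.11). Acvr2b gave 0.18 (SE 0.18) and 0.44 (SE 0.18) and did not pass. Fst, the secreted activin antagonist follistatin, fell by 0.92 in WT and by 1.09 in KO (SE 0.16 in each, adjusted p = 9.91e-05 and 3.64e-05). Fstl3, a related antagonist, was tested in KO and fell by 1.01 (SE 0.23, adjusted p = 0.00208). It held 2 to 17 reads a library and was not in the fit with batch terms. The paralog Inhbb gave 0.32 (SE 0.15) and 0.27 (SE 0.15) without passing.

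Over the list of 13 further activin pathway genes, 12 were tested in WT, of which 4 rose and 2 fell, and 13 in KO, of which 4 rose and 4 fell. Their medians were 0.23 and 0.07. For comparison, 44.3% of all genes passed in WT and 40.9% in KO. Among the 4 that rose in each genotype, Tgif1, a co-repressor of Smad proteins, had the largest change of the list, 2.45 (SE 0.18) in WT and 2.39 (SE 0.20) in KO, and Smad7, an inhibitor of the pathway, rose by 0.97 and 0.70 (SE 0.19 and 0.18). Tgif1 and Smad7 were chosen after their values were seen.

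**Figure D2:**
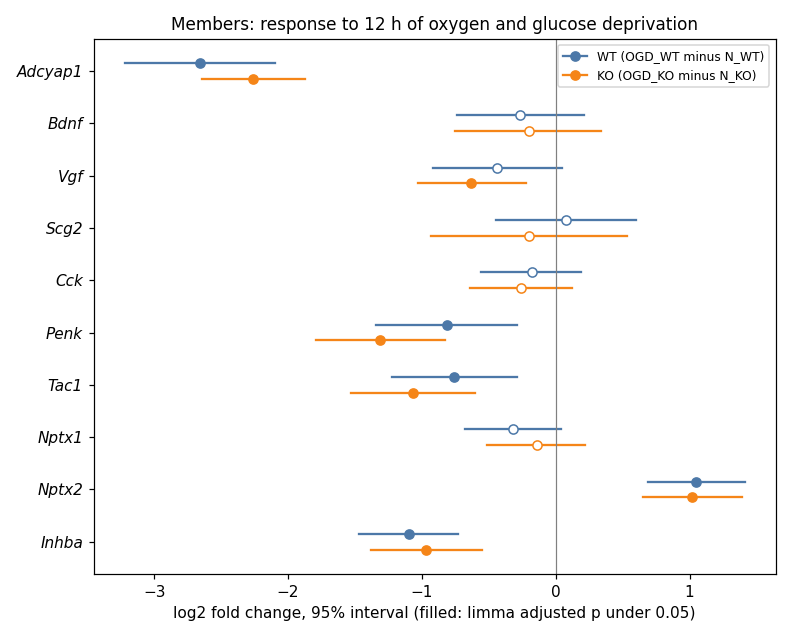
Log2 fold change of each member under OGD (x axis) in WT and KO cultures, as points with 95% intervals from limma, filled where the adjusted p was under 0.05. Nptx2 is the member to the right of 0 in both genotypes with an interval clear of it, and Adcyap1 lies farthest to the left.

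Penk (chr4:4133531-4138819, minus strand) fell in both genotypes, with a wide spread between cultures. In N_WT it was at 10.2, 12.2, 13.4, 9.37 and 17.4 CPM in cultures 1 to 5 and in OGD_WT at 8.76, 7.12, 6.36, 12.7 and 2.9 CPM. Culture 4 was higher under OGD, by 0.41 on the log2 scale, and culture 5 was lower by 2.43, so the groups overlapped. The log2 change was -0.81 (SE 0.25, interval -1.34 to -0.29, adjusted p = 0.0124). With the culture number as a block the adjusted p was 0.0645, and without the OGD library of culture 5 the change was -0.53 (adjusted p = 0.0207). In KO the levels were 10.6, 15.3, 9.39, 20 and 15.9 CPM in normoxia and 6.84, 6.03, 7.4, 4.29 and 2.97 CPM under OGD, without overlap. That change was -1.31 (SE 0.23, interval -1.79 to -0.83, adjusted p = 0.000205), and -1.12 without the OGD library of culture 5. Exons of Penk overlap those of A830012C17Rik on the opposite strand. The kit marks strand, and whether the counting used it is not given in the sources used here.

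Tac1 (chr6:7554879-7565834, plus strand) was the member with the fewest reads. Its N_WT libraries held 14, 16, 19, 14 and 15 reads in cultures 1 to 5 and its OGD_WT libraries 12, 11, 4, 6 and 5. KO cultures had 15, 21, 7, 14 and 18 reads in normoxia and 7, 2, 8, 1 and 3 under OGD. In CPM the groups overlapped in WT, at 0.93 to 1.89 against 0.344 to 1, and did not overlap in KO, at 0.822 to 1.44 against 0.116 to 0.57. The log2 changes were -0.76 in WT (SE 0.22, adjusted p = 0.0091) and -1.07 in KO (SE 0.22, adjusted p = 0.000915). Each of the 5 cultures of each genotype was lower under OGD, which in KO follows from the lack of overlap. Tac1 was not in the table that compares OGD_KO with OGD_WT.

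Cck stayed between 3.9 and 8.32 CPM in the normoxic libraries and between 3.02 and 6.1 CPM in the deprived ones. The ranges overlapped, and the log2 changes of -0.18 (SE 0.18, interval -0.56 to 0.19) in WT and -0.26 (SE 0.18, interval -0.64 to 0.12) in KO did not pass. Of the receptors of these 3 peptides, Oprd1, the delta opioid receptor for enkephalins, gave 0.09 (SE 0.21) and 0.29 (SE 0.20), and Tacr1, the receptor of substance P, 0.43 (SE 0.20) and 0.19 (SE 0.19), none past the threshold. Cckbr and Oprm1, the cholecystokinin B and mu opioid receptors, were not tested for OGD, and Cckar was not analysed here. Over all receptors of the members, 0 rose in either genotype. In WT 5 of 11 fell, where 22.8% of all genes fell, and in KO 4 of 12, where 19.9% did.

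Of 23 further neuropeptide precursors on the list, 6 were tested for OGD. In WT 2 fell and 0 rose, where 22.8% of all genes fell, and in KO 1 fell and 0 rose, where 19.9% did. The medians were -0.32 and -0.11. With batch terms 2 fell in WT and 0 in KO, where the gene lost was Pnoc, pronociceptin, named here after its values were seen (-0.57, adjusted p = 0.0249, and 0.0696 with batch terms). Npy, neuropeptide Y, gave 0.21 (SE 0.19) and 0.43 (SE 0.19), Sst, somatostatin, -0.29 (SE 0.19) and -0.26 (SE 0.20), and Crh, corticotropin-releasing hormone, 0.52 (SE 0.29) and 0.84 (SE 0.35), none past the threshold in either genotype. Vip was not analysed here.

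Vgf and Scg2 code for granins, proteins of the dense-core vesicle that are also cut into peptides, and were the members with the highest levels per length. In N_WT Scg2 stood at 56.7 ± 14.8 and Vgf at 25.1 ± 7.89 CPM per kilobase of annotated exon (SD, n = 5). Next came Penk at 7.66 ± 1.94 and Nptx2 at 6.84 ± 1.31 CPM per kilobase, and Tac1 was the lowest at 0.407 ± 0.129. Under OGD in WT, Nptx2 stood at 14.5 ± 3.27 and Adcyap1 at 0.424 ± 0.239 CPM per kilobase, from 3.06 ± 0.928 in normoxia.

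Vgf (chr5:137026392-137033351, plus strand) passed the test in KO cultures. Its N_KO levels were 51.4, 92.5, 56.7, 94 and 73.5 CPM in cultures 1 to 5 and its OGD_KO levels 58.9, 38.7, 58.3, 43 and 35.1 CPM. Cultures 2, 4 and 5 were lower under OGD by more than 1 log2 unit, and cultures 1 and 3 were higher by 0.20 and 0.05. The log2 change was -0.63 (SE 0.19, interval -1.03 to -0.22, adjusted p = 0.0142), with adjusted p = 0.0501 with the culture number as a block and 0.0554 in the fit of all 20 libraries with batch terms. In WT the levels were 47.8, 58.9, 81.6, 76.1 and 109 CPM in normoxia and 68.2, 47.1, 48.2, 91.6 and 31.1 CPM under OGD. The groups overlapped widely, and the change of -0.44 (SE 0.23, interval -0.92 to 0.05, adjusted p = 0.136) did not pass. It was -0.25 without the OGD library of culture 5 and passed, at -0.63 (adjusted p = 0.036), without that of culture 4.

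Scg2 (chr1:79434669-79440120, minus strand) differed in direction between cultures. In WT it was at 103, 115, 155, 142 and 198 CPM in normoxia and at 191, 197, 130, 228 and 63.8 CPM under OGD. Cultures 1, 2 and 4 were higher under OGD and cultures 3 and 5 lower, and the change was 0.08 (SE 0.25, interval -0.45 to 0.60). In KO it was at 128, 215, 161, 198 and 120 CPM in normoxia and at 201, 213, 200, 157 and 37.4 CPM under OGD, with a change of -0.20 (SE 0.35, interval -0.93 to 0.53). Without the OGD library of culture 5 the changes were 0.37 in WT (adjusted p = 0.0848) and 0.27 in KO (adjusted p = 0.232), so the sign in KO turned with that library. The summed level of 8 neuron markers was also the lowest in these libraries, at 2790 CPM in OGD_WT culture 5, where the other OGD_WT libraries had 3839 to 5447 CPM, and at 3018 CPM in OGD_KO culture 5. The marker Map2 weighed most in this sum, with a mean log2 CPM of 11.40 in N_WT, where Tubb3, the next, had 9.75. The part of the summed level in the result was not tested.

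The enzymes and proteins of the dense-core vesicle were tested as a list of 18 genes. In WT 1 rose and 6 fell (median -0.22), and in KO 0 rose and 7 fell (median -0.23). Of all genes 44.3% passed in WT (21.6% rose and 22.8% fell) and 40.9% in KO (21% rose and 19.9% fell). With all libraries and batch terms 4 genes of the list fell in WT and 6 in KO, and 0 rose. Pcsk2, a prohormone convertase, fell by 1.21 in WT (SE 0.17, adjusted p = 7.14e-06) and by 0.96 in KO (SE 0.15, adjusted p = 9.16e-05). Pcsk1, the other convertase, rose by 0.64 in WT (SE 0.24, adjusted p = 0.0347), a call that did not pass with batch terms (adjusted p = 0.0894), and gave 0.48 (SE 0.27, adjusted p = 0.164) in KO. The granins Chga and Chgb fell in both genotypes, Chga by 0.93 and 0.86 and Chgb by 0.50 and 0.58 (adjusted p = 0.0263 and 0.00956), and Chgb in WT did not pass with batch terms (adjusted p = 0.0658). Cpe, the carboxypeptidase that trims peptides, gave -0.03 (SE 0.17) and -0.16 (SE 0.24), and Pam, the amidating enzyme, -0.15 (SE 0.22 and 0.17) in both, and neither passed.

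**Figure D3:**
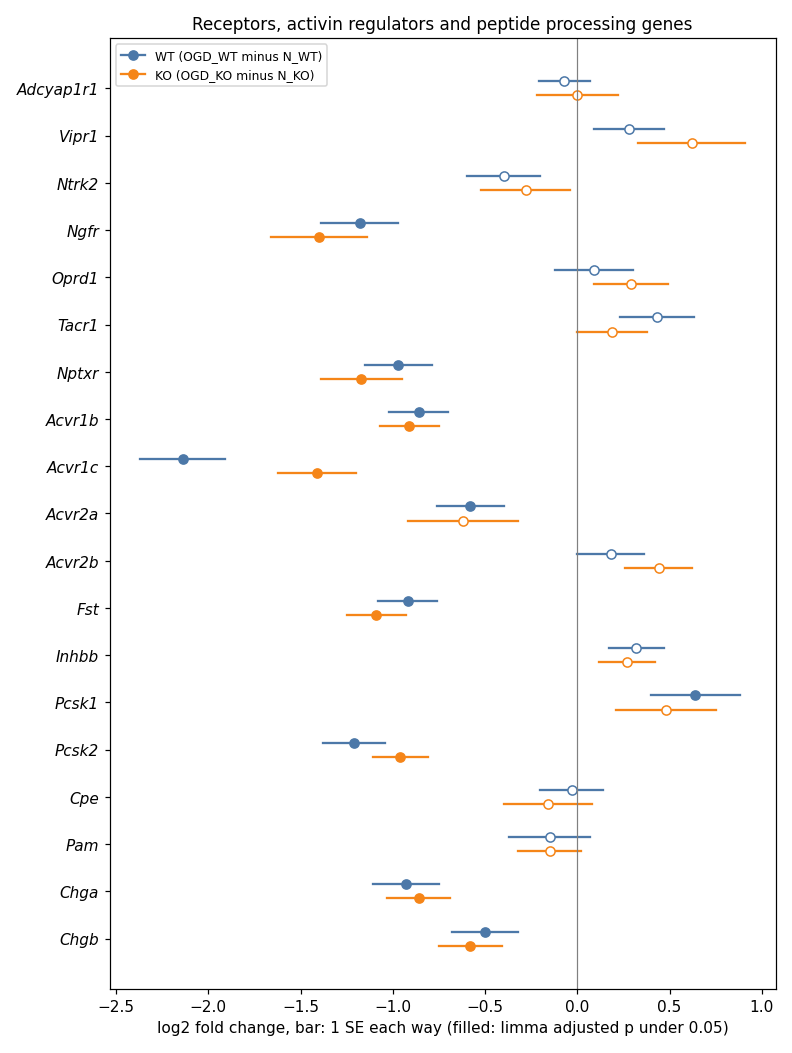
Log2 fold change under OGD (x axis) of receptors of the members, activin regulators and genes of peptide processing in WT and KO cultures, with bars of 1 SE each way and filled points where the adjusted p was under 0.05. Acvr1c has the lowest points, and Adcyap1r1, Cpe and Pam lie near 0.

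Bdnf (chr2:109674700-109727007, plus strand), the neurotrophin that acts through the receptor TrkB, did not pass in either genotype. In WT it was at 8.63, 15, 17.8, 17.7 and 15.6 CPM in normoxia and at 18.3, 8.22, 9.03, 19 and 10.1 CPM under OGD. In KO it was at 8.21, 14, 11.7, 16.9 and 16.5 CPM in normoxia and at 16.8, 15.3, 14.9, 8.12 and 5.6 CPM under OGD. The log2 changes were -0.27 (SE 0.23, interval -0.74 to 0.21, adjusted p = 0.36) and -0.20 (SE 0.26, interval -0.75 to 0.34, adjusted p = 0.555), and the groups overlapped. Without the OGD library of culture 5 the changes were -0.21 in WT and 0.03 in KO, so the sign in KO turned.

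Bdnf differed in direction between cultures, within batch 3 and between batches. Culture 1, the batch 1 culture of each genotype, was higher under OGD by 1.02 in WT and by 1.00 in KO. In batch 3, WT culture 4 (0.09) and KO culture 2 (0.14) were higher and the other cultures lower, down to -0.97 in WT and -1.49 in KO. Over batch 3 alone the change was -0.59 in WT and passed (4 cultures, adjusted p = 0.0387), and in KO it was -0.79 and did not (3 cultures, adjusted p = 0.056). Batch 2 held 1 culture, KO culture 3, at 0.34. In it and in WT culture 3, the culture of batch 3.2, the deviations of the N and OGD library from their group means were negatively correlated over 12625 genes (r = -0.79 and -0.72). Whether the batches differ was not tested, since batch 1 has 1 culture of each genotype. Exons of Bdnf overlap those of Gm45346 on the opposite strand.

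**Figure D4:**
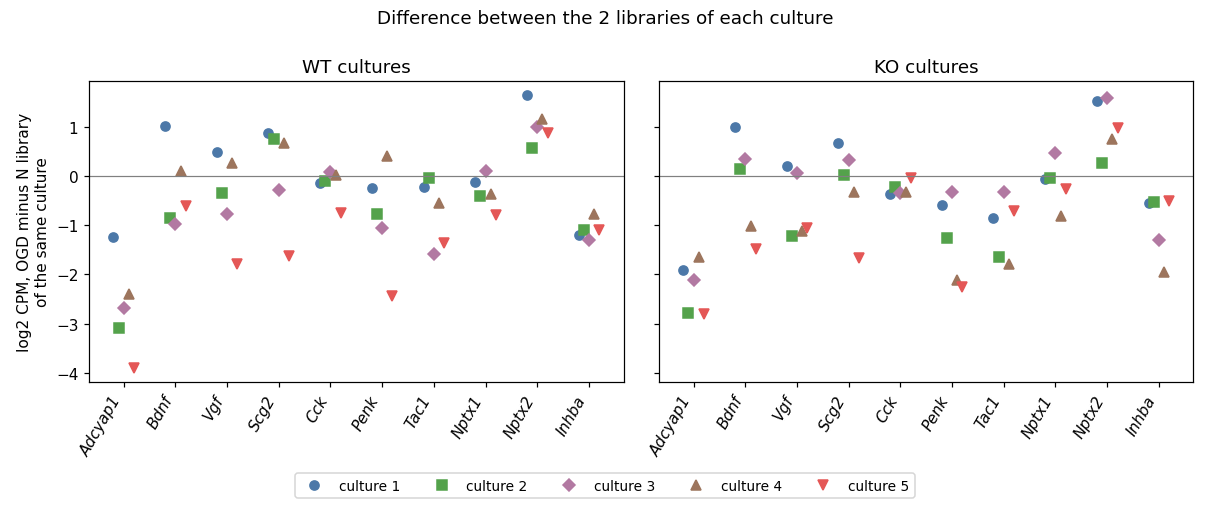
Difference in log2 CPM between the OGD and N library of the same culture number (y axis) for each member in WT (left) and KO (right), with marker and colour for the culture. All 5 cultures lie below 0 for Adcyap1, Tac1 and Inhba and above 0 for Nptx2 in both genotypes, while Bdnf, Scg2 and Vgf lie on both sides. For Adcyap1, Inhba and Nptx2 this follows from N and OGD groups that do not overlap.

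Among the receptors of Bdnf, Ntrk2 (TrkB) gave -0.40 (SE 0.20, adjusted p = 0.112) in WT and -0.28 (SE 0.24, adjusted p = 0.362) in KO. Ngfr, the low-affinity neurotrophin receptor p75, fell by 1.18 (SE 0.21, adjusted p = 0.000128) and 1.40 (SE 0.26, adjusted p = 0.000324). Ntf3, the related neurotrophin NT-3, fell by 0.72 and 0.88 (adjusted p = 0.0198 and 0.00226) at 3 to 27 reads a library. Over the list of 11 other neurotrophins and their receptors, 8 were tested, and in each genotype 1 rose and 3 fell. The share of all genes that passed was 44.3% in WT and 40.9% in KO.

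CREB, its partners and other regulators of activity genes were tested as a list of 15 genes, some of which rose and some fell. Of these, 5 rose and 3 fell in WT and 5 rose and 4 fell in KO, where 44.3% and 40.9% of all genes passed. Creb1, the factor itself, gave 0.16 (SE 0.15) and 0.19 (SE 0.15) and did not pass, and Crem, its relative that also yields repressor forms, rose by 0.61 and 0.58 (adjusted p = 0.0172 and 0.00754). Rest, a repressor of neuronal genes such as Bdnf, Vgf and Scg2, rose by 1.17 in WT (SE 0.15, adjusted p = 2.82e-06) and by 0.94 in KO (SE 0.15, adjusted p = 7.94e-05). Npas4, an activity-induced factor known to switch on Bdnf and named here after its values were seen, rose by 1.72 (SE 0.21, adjusted p = 1.41e-06) and 1.28 (SE 0.21, adjusted p = 0.000123).

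Of 12 other genes of the late response to activity, 7 rose and 1 fell in WT (median 0.61), and 4 rose and 2 fell in KO (median 0.46). Among all genes 21.6% rose and 22.8% fell in WT, and 21% rose and 19.9% fell in KO. With batch terms 6 of the 12 rose and 0 fell in WT, and 4 rose and 1 fell in KO. Nrn1, neuritin, another secreted activity gene, rose by 0.64 in WT (SE 0.17, adjusted p = 0.0039) and gave 0.30 (SE 0.19, adjusted p = 0.218) in KO. Homer1, a scaffold of glutamate receptors, gave 0.25 (SE 0.18) and 0.12 (SE 0.16) without passing.

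Markers of cell types moved with treatment beside these results. The counts below stand beside 21.6% of all genes that rose and 22.8% that fell in WT, and 21% and 19.9% in KO. Of the 8 markers of neurons in general, 3 fell in WT and 4 in KO and 0 rose, with medians of -0.33 and -0.55 (2 and 3 fell with batch terms). Their summed level was 4369 to 5820 CPM in N_WT and 2790 to 5447 CPM in OGD_WT, which overlapped. It was 5048 to 5186 CPM in N_KO and 3018 to 4363 CPM in OGD_KO, which did not. Map2, which weighed most in these sums, gave -0.20 (SE 0.20) in WT and -0.25 (SE 0.18) in KO and did not pass. The 7 markers of excitatory neurons, the main source of Adcyap1, Bdnf and Nptx2 in cortex, all fell in both genotypes, with medians of -1.03 (WT) and -0.92 (KO), and their summed level went from 861 to 1005 CPM in N_WT to 453 to 500 CPM in OGD_WT, and from 744 to 1010 CPM in N_KO to 406 to 600 CPM in OGD_KO. Of 9 interneuron markers, the cells that make most Penk, Tac1 and Sst in cortex, 2 fell and 0 rose in each genotype (0 in WT and 2 in KO fell with batch terms), and the sums overlapped, at 341 to 430 CPM in N_WT and 303 to 459 CPM in OGD_WT. Summed levels of astrocyte markers (7 of 8 analysed) were 999 to 1292 CPM in N_WT and 1663 to 2056 CPM in OGD_WT, and 813 to 1455 CPM in N_KO and 1333 to 2153 CPM in OGD_KO, and 4 rose and 1 fell in WT and 3 rose in KO. All 4 proliferation markers rose in both genotypes. Oligodendrocyte lineage markers (7 of 8 analysed) summed to 266 to 331 CPM in N_WT and 311 to 457 CPM in OGD_WT, and 2 of 6 vascular markers were analysed, at 3.51 to 6.43 and 3.18 to 3.97 CPM in sum. The part of these shifts in the members' changes was not tested.

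Loss of ciRS-7 changed none of the members past the threshold, in normoxia or under OGD. In normoxia 0 of 10 members passed limma's test, where 0.0353% of all genes (5 of 14152) did, and under OGD 0 of 9, where 0.0282% (4 of 14185) did. Cdr1as, the locus of the knockout itself, was among the genes that passed in both, at -6.32 in normoxia and -6.26 under OGD. No member had an unadjusted p under 0.05, as 1.81% and 1.78% of all genes had. Both shares are below what a threshold of 0.05 gives when no gene differs, so these p-values may be too large. The groups overlapped for every member in both comparisons, where 0.325% and 0.345% of all genes did not overlap. In normoxia the differences (KO minus WT) ran from -0.18 for Inhba (SE 0.16, interval -0.51 to 0.15) to 0.20 for Scg2 (SE 0.19, interval -0.19 to 0.59). Under OGD they ran from -0.36 for Penk (SE 0.30, interval -1 to 0.27) to 0.29 for Adcyap1 (SE 0.29, interval -0.33 to 0.90).

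The width of these intervals limits what could be seen. The narrowest in normoxia was that of Nptx1, at 0.02 (interval -0.31 to 0.34), and the widest under OGD that of Scg2, at -0.10 (interval -0.96 to 0.77). For Inhba, the member with the miR-7 seed match, the difference under OGD was -0.07 (SE 0.23, interval -0.54 to 0.41). Differences within these intervals could not be told from 0 with 5 libraries a group. The intervals are not adjusted for the number of genes, and passing the adjusted threshold took a larger difference still.

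**Figure D5:**
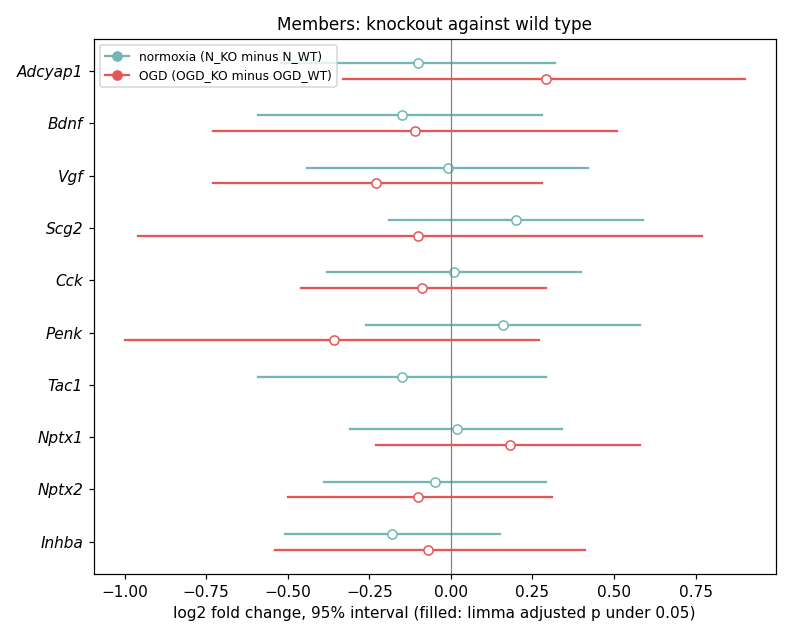
Log2 difference between KO and WT (x axis) for each member in normoxia and under OGD, with 95% intervals from limma; open points mark adjusted p-values of 0.05 or more. All intervals include 0, and those of every member tested under OGD except Cck are wider there than in normoxia.

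The response to OGD was also compared between genotypes, by the interaction of genotype and treatment over the 20 libraries. It passed for 0 of 13688 genes with limma, 99 of which (0.723%) had an unadjusted p under 0.05, and for 0 of the 9 members in that fit, none of which had an unadjusted p under 0.05. The difference in response (KO minus WT) was 0.43 for Adcyap1 (SE 0.43, interval -0.45 to 1.31), -0.05 for Nptx2 (SE 0.29, interval -0.64 to 0.54) and 0.10 for Inhba (SE 0.32, interval -0.55 to 0.75). It was -0.54 for Penk (SE 0.42, interval -1.39 to 0.32) and -0.22 for Vgf (SE 0.36, interval -0.96 to 0.52), the member that passed in KO and not in WT. Tac1 gave -0.53 (SE 0.44, interval -1.43 to 0.36) in the fit over the genes of both OGD tables. Without culture 5 of both genotypes 20 genes passed, none of them a member, and Penk gave -0.71 (interval -1.30 to -0.13, adjusted p = 0.74).

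The order of the group means on the joint log2 scale was read against the larger SD of each neighbouring pair. For Adcyap1 (N_WT, N_KO, OGD_KO, OGD_WT from high to low), Inhba (N_WT, N_KO, OGD_WT, OGD_KO) and Nptx2 (OGD_WT, OGD_KO, N_WT, N_KO) the step between treatments was larger than that SD and the steps between genotypes were not. The same held for Penk. For Tac1 the step from OGD_WT to OGD_KO was also larger, at 4 to 12 against 1 to 8 reads a library. In the fit of all 20 libraries with batch terms this difference did not pass, nor did that of any other member. No step of Bdnf, Vgf, Scg2, Cck or Nptx1 was larger than that SD.

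Genes with the most similar pattern were found by Pearson's r of log2 CPM over the 20 libraries, given as a description, since the libraries share batches and the treatment sets much of each pattern. For Adcyap1 they were Plppr4 (0.99), Plppr5 (0.98) and Gm36931 (0.98), and for Inhba Celf5, Map1a and Prmt8 (0.96 each). For Nptx2 they were Abhd18 (0.93), Mertk (0.92) and Car2 (0.92), and for Penk Gpr22 (0.94), Prkar2a (0.93) and Rab3c (0.92). Bdnf was nearest to Nr4a3 (0.86), an activity-induced nuclear receptor, then Gm37608 (0.82) and Crybg3 (0.81). Vgf had Osbpl3 (0.90), Brinp1 (0.89) and, among the members, Penk (0.89). Scg2 was near to Pgap1 (0.87) and Zfand5 (0.86), Cck to Trub2 (0.89), Vps53 (0.86) and Tcp11l1 (0.84), Tac1 to Arhgdib (0.91), Alas1 (0.88) and Snapin (0.86), and Nptx1 to Zcrb1 (0.89), C530043K16Rik (0.83) and Gm14305 (0.81).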

How the data were processed

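The authors deposited 4 tables of log2 CPM, 1 per comparison, each with 10 libraries. The genome build was mm10, per the submitters' processing notes. The aligner, annotation, counting, gene filter and scaling are not given in the sources used here. In each gene and group of 5, the deposited values had been clipped at the 10th and 90th percentile, as inferred from the values. This was undone (the extreme had a weight of 0.6 and its neighbour 0.4), after which at least 99.91% of values up to 500 reads were whole reads within 0.05 reads (45.3% to 92.8% as deposited). Every value, CPM included, is computed from these undone values unless called as deposited.

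Each comparison was fitted in its own table with limma 3.58.1 (R 4.3.3; intensity trend, no block or batch term), two-sided, with p adjusted (Benjamini-Hochberg) over all genes of the table and a threshold of 0.05. The interaction used the 13688 genes of all 4 tables, a prior count of 2 reads, median-of-ratios scaling and the culture through duplicateCorrelation (-0.19). The lists, the members and the tests were chosen with earlier results of these data known. Named genes are the members, their receptors, set processing, activin, neurotrophin, peptide, CREB and activity genes, Cdr1as, and the 3 genes most like each member by Pearson's r among those of mean log2 CPM of at least 1. A gene that this rule names for Scg2 is not reported here. The code was tested on simulated data.

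Deviations from the group mean of libraries of the same batch were negatively correlated over genes in 37 of 38 pairs (r from -0.79 to 0.03). Some of these pairs, in batches 3.1 and 3.3, are libraries of the same group. For them, removing the group mean alone tends to make r negative. Whether the authors adjusted for batch is not given in the sources used here. P-values without a batch term may then be too small, so fits with the 5 batches as terms were added after seeing the data. For the knockout and the interaction they may instead be too large. There 1.81% (normoxia), 1.78% (OGD) and 0.723% (interaction) of genes had an unadjusted limma p under 0.05, fewer than when no gene differs. The N and OGD libraries of the same number share a genotype label and a batch, per the labels. Their deviations had r from -0.79 to 0.033, and the labels do not say that they come from the same animals. A negative r can widen the spread of the differences within cultures given above, for every member. The fixed design expected a prior count of about 2 in the deposited values, and the values gave 3.6 to 5.0 on average per table.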

Additional observations from a re-analysis of the deposited data

Results flagged for a closer look

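In 4 of the 40 member and group combinations, 1 library lay far from the other 4 (Dixon's test at the 95% level), where chance gives about 2. Values are joint log2 CPM. Bdnf was at 3.14 in N_WT culture 1, and at 3.92 to 4.16 in the other N_WT libraries. Scg2 was at 5.23 in OGD_KO culture 5, and at 7.30 to 7.74 in the others. Cck was at 3.09 in N_WT culture 5, and at 2.11 to 2.38 in the others. Inhba was at 2.39 in OGD_WT culture 4, and at 1.45 to 1.67 in the others, and still below every N_WT library.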

How the results depend on the processing

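Over the members and all alternatives that gave a value, 970 of 977 kept their side of the threshold, 3 newly passed and 4 no longer passed. All 7 changes were among the values for OGD. The 977 also hold the values for the knockout and the interaction, where no member passed, so their share does not measure how firm the OGD calls are. No member that passed changed sign, and 62 of the values that did not pass did, 7 of them for OGD (5 for Scg2 in WT, down to -0.12 in batch 3 alone, and Scg2 and Bdnf in KO without culture 5) and the others for the knockout or the interaction, from main values of 0.31 or less in size. The 7 that changed side are named above, except that Vgf in WT also passed in batch 3 alone (-0.67, adjusted p = 0.0367). With the replicate block 5681 genes passed in WT and 4829 in KO, against 6313 and 5884 without, with Penk in WT and Vgf in KO as the members lost. Leaving out each library in turn gave 5250 to 6635 genes and 5 to 6 members in WT, and 4908 to 5930 genes and 6 members in KO. As deposited, 8280 and 8024 genes passed, with the members unchanged. In batch 3 alone 2341 genes passed in KO. For the knockout in normoxia (5 genes), 2 genes passed with all 20 libraries and batch terms, 2 in batch 3 alone, 11 with batch in 5 levels inside the table, 3 with mean log2 CPM of at least 1, 9 as deposited, and 3 to 5 leaving out a library (3 without N_KO culture 2). For the knockout under OGD (4 genes), the counts were 1 with all 20 libraries, 17 with batch in 5 levels, 2 with the batch label as a covariate, 1 with a prior count of 0.5, 12 as deposited, and 1 to 7 leaving out a library (7 without OGD_KO culture 5). The interaction passed for 0 genes, and for 20 without culture 5 of both genotypes. None of these knockout or interaction calls was a member. The cause of the shifts was not tested. Tac1 at 1 to 21 reads a library is limited by depth.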

Other observations

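With group means removed, 39 of 45 pairs of members (86.7%) had a positive Pearson's r over the 20 libraries, where 49.9% of all pairs of 14097 genes had, and 18 (40%) had an r of 0.5 or more, where 7.37% of all pairs had, the highest being Vgf with Penk (0.86). Nptx2 and Vgf had an r of 0.72 within groups and -0.18 over all libraries, and Nptx2 was higher under OGD while Vgf was not. These values are a description over libraries that share batches and differ in depth, of genes chosen as a related set, and a few libraries hold many of the extremes. Among the OGD_WT libraries, culture 4 was the highest for 8 of the 10 members and culture 5 the lowest for 5 (Adcyap1, Vgf, Scg2, Penk and Nptx1). Among the OGD_KO libraries, culture 5 was the lowest for 5 (Adcyap1, Bdnf, Vgf, Scg2 and Penk).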
